A study of Homo sapiens with 9 samples.

Results

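The 10 Kruppel-like factor genes described here are KLF2, KLF3, KLF4, KLF5, KLF6, KLF7, KLF9, KLF10, KLF11 and KLF13, taken by symbol from the 58920 genes that the count tables list. These 10 genes were chosen with earlier results of these data known. Their RNA was measured in the colorectal cancer cell line LIM1215, which is sensitive to the anti-EGFR antibody cetuximab, and in LIM1215-R1 and LIM1215-R2, cells of that line that were selected independently of each other with rising cetuximab concentrations. LIM1215-parental cells were kept in parallel without cetuximab, and all 3 lines were in culture without the antibody when RNA was taken. Both resistant lines are mixed populations and not single clones, each selection is a single population, and the 3 libraries per line are called technical replicates by the study. Tests therefore measure the spread between libraries of 1 population, and differences of culture or harvest cannot be told apart from differences between the lines.

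Kruppel-like factors are transcription factors that bind GC-rich and CACCC-containing DNA through zinc fingers at the C-terminal end, while the rest of the protein decides which partners are recruited. KLF3, with KLF8 and KLF12, binds the corepressor CtBP. KLF2, KLF4, KLF5, KLF6 and KLF7 mostly activate transcription and recruit acetyltransferases, and KLF9, KLF10, KLF11 and KLF13 bind the corepressor SIN3A. In the intestinal epithelium KLF5 marks proliferating crypt cells, whereas KLF4 marks differentiated cells that have left the cell cycle.

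The promoters of 5 members are shown because KLF7, KLF9 and KLF2 had the largest fitted changes against parental cells, and because KLF4 and KLF5 moved in opposite directions. Each is the stretch of 250 bases before the transcript start in RefSeq (GRCh38.p14), written on the strand of the gene. Capitals mark a GC box (GGGCGG) or a CACCC box (CACCC), searched on both strands, so that the reverse complement of either is in capitals too. They lie at chr19:16324576-16324825 (KLF2, plus strand), chr9:107489770-107490019 (KLF4, minus strand), chr13:73058755-73059004 (KLF5, plus strand), chr2:207165949-207166198 (KLF7, minus strand) and chr9:70414658-70414907 (KLF9, minus strand).
KLF2: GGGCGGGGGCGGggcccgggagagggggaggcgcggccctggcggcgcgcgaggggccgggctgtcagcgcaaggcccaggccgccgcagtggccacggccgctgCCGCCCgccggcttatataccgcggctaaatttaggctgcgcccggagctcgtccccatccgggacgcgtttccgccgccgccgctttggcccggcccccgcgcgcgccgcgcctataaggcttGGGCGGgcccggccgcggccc
KLF4: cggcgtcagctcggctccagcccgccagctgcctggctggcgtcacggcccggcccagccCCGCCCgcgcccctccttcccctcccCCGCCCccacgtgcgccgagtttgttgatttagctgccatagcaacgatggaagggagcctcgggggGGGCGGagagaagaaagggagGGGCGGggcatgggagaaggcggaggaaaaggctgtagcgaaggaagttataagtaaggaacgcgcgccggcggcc
KLF5: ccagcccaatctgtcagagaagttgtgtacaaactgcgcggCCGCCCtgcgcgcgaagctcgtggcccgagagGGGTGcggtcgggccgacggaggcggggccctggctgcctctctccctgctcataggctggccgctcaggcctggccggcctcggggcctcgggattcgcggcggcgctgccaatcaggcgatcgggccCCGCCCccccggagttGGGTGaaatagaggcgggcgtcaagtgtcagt
KLF7: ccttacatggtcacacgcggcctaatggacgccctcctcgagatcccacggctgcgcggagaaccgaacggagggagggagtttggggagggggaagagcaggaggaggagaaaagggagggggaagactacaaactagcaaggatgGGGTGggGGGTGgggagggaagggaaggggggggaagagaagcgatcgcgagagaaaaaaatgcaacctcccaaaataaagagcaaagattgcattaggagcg
KLF9: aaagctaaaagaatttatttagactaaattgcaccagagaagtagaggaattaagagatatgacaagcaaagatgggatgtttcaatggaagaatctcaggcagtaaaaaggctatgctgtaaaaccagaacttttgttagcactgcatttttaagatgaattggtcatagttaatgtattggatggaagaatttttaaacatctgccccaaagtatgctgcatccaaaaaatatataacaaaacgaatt
The KLF2 and KLF4 promoters held 4 GC boxes each and no CACCC box, and the KLF5 promoter held 2 of each. The KLF7 promoter held 2 CACCC boxes and no GC box, and the KLF9 promoter held neither. KLF9 also had the lowest GC content, 32.4%, against 58% for KLF7, 69.2% for KLF4, 70.8% for KLF5, 80% for KLF2 and a median of 62.4% over all 15842 promoters searched. Of the 8 members whose promoters were searched, 6 held a GC box and 3 a CACCC box, compared with 56.0% and 57.9% of all promoters. Both were held by 35.1% of all promoters. In the KLF13 promoter 1 base belonged to both motifs. The KLF11 stretch, with 2 GC boxes, lies inside the gene at chr2:10043579-10043828, before a start 279 bases from that of the reference transcript. A match is a stretch of letters and no evidence of binding. Of the members whose promoters are not printed, the genes lie at chr4:38664199-38701517 (KLF3), chr10:3775996-3785209 (KLF6), chr2:10043550-10054836 (KLF11) and chr15:31326835-31435665 (KLF13). KLF3 had no promoter entry, and KLF10 was left out of the motif search.

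Total counts were 13737416 to 18725014 per library, and 19102 genes passed the filter of at least 10 counts over the 9 libraries, all 10 members among them. Values are CPM, counts scaled to a common library size, and 3 counts in a library corresponded to 0.158 to 0.217 CPM. Of 10 colon epithelial markers, 9 were well detected and KRT20, a keratin of differentiated colonocytes, was at 0 in every library. Their summed level was 12745 to 13122 CPM in parental cells, 15902 to 16175 in LIM1215-R1 and 14432 to 14835 in LIM1215-R2. The keratins KRT8 and KRT18 made up 75.5% to 84.1% of that sum. Of the 9 markers tested, 3 (KRT8, KRT18 and VIL1) were higher and 5 lower in each resistant line, with median log2 fold changes of -0.23 and -0.32. This is 88.9% called in each line, beside 27.3% of all tested genes in LIM1215-R1 and 23.8% in LIM1215-R2. Among those that fell, the intestinal factor CDX1 had log2 fold changes of -0.85 and -0.65 and the adhesion protein CDH17 of -0.53 and -0.58. The 5 fibroblast markers summed to 0.457 to 2.18 CPM, the 5 leukocyte markers to at most 0.531 and the 4 endothelial markers to at most 0.722, with COL1A2, PTPRC, CD3E and KDR at 0 in all libraries. PECAM1 was called lower in both resistant lines on 15 parental counts, 10 of them in replicate 2, against 0 and 0, and LYZ was called lower in LIM1215-R2 on 20 counts against 1. With 1 library left out, each PECAM1 call was lost in 4 of 8 fits (adjusted p up to 0.0331), the fit without LIM1215-parental replicate 2 leaving too few counts to test. The LYZ call was lost without any 1 parental library or LIM1215-R2 replicate 1 or 3 (adjusted p up to 0.0316). The part of these markers in the results for the Kruppel-like factors was not tested.

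Most members differed between resistant and parental cells, in both directions. In LIM1215-R1, 8 of the 10 members were called at an adjusted p of at most 0.01 (quasi-likelihood test of edgeR, Benjamini-Hochberg adjustment across the genes tested), 3 higher and 5 lower, where 27.3% of all tested genes were called, 14% higher and 13.4% lower. KLF4, KLF9 and KLF10 rose, and KLF2, KLF3, KLF5, KLF7 and KLF11 fell. In LIM1215-R2, 6 were called, where 23.8% of all genes were called, 12.3% higher and 11.6% lower: KLF4, KLF9 and KLF10 rose and KLF2, KLF5 and KLF7 fell. Because the 2 comparisons share the parental libraries, the calls in LIM1215-R2 are no independent repeat of those in LIM1215-R1. Since the members were picked with earlier results known, their share beside that of all genes cannot test for enrichment of the family. The same holds for the related lists below. All genes were also not matched to the members for level. With at least 10 counts required in every library, 4505 of 12180 genes were called for LIM1215-R1. For LIM1215-R2 the same filter gave 3900.

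Differentially expressed genes (DEGs) had, in addition, a log2 fold change of 1.5 or more in size. KLF9 was a higher DEG and KLF2 and KLF7 were lower DEGs in LIM1215-R1, where DEGs made up 5.14% of all genes, 3.24% higher and 1.91% lower. In LIM1215-R2, KLF9 was a higher and KLF7 a lower DEG, against 4.82% of all genes, 2.63% higher and 2.19% lower. KLF9 passed the count filter only through the resistant lines, and KLF7 only through the parental line. With at least 10 counts required in every library, neither was tested. That left KLF2 in LIM1215-R1 as the only DEG among the members in the comparisons with parental cells. With shrunken fold changes from DESeq2 (lfcShrink, a function the study's methods also name), KLF9 was a DEG in neither line, which left KLF2 and KLF7 in LIM1215-R1 and KLF7 in LIM1215-R2. The libraries of the resistant and parental line did not overlap for 9 members in LIM1215-R1 and for 7 in LIM1215-R2, where this held for 44% and 42.8% of all genes. The median log2 fold change of the members was -0.16 in LIM1215-R1 and -0.03 in LIM1215-R2, beside -0.01 and -0.0037 over all genes.

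**Figure D1:**
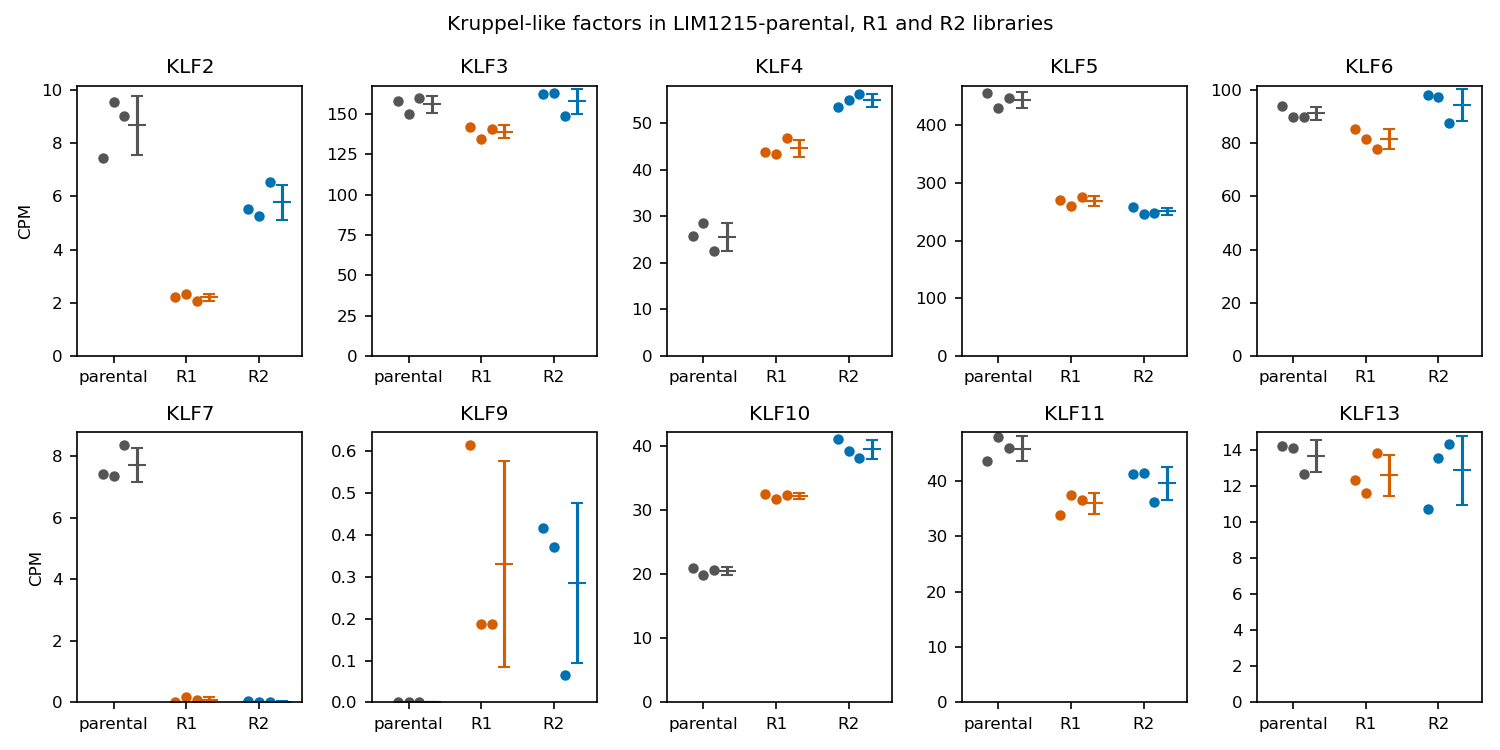
Level of each Kruppel-like factor in CPM (vertical axis from 0, own scale for each gene) by line, with 1 point per library and the mean ± SD of 3 libraries beside the points. KLF7 stands at 7.37 to 8.35 CPM in the parental libraries and near 0 in the others, while KLF4 and KLF10 rise from parental to LIM1215-R1 to LIM1215-R2.

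KLF5, the activator found in proliferating crypt cells, was the most abundant member and fell in both resistant lines. Its parental libraries held 456, 429.8 and 447 CPM, those of LIM1215-R1 270.2, 259.8 and 277, and those of LIM1215-R2 258, 246 and 248. All 6 resistant libraries lay below all 3 parental ones, and LIM1215-R2 lay below LIM1215-R1 in every library. The mean fell from 444 ± 13.4 CPM (SD, n = 3) to 269 ± 8.54 and 251 ± 6.29, which is 1.65-fold and 1.77-fold lower. The log2 fold change was -0.73 (SE 0.0429, edgeR adjusted p = 1.19e-13) in LIM1215-R1 and -0.83 (SE 0.0430, edgeR adjusted p = 8.01e-15) in LIM1215-R2. Between the resistant lines the log2 difference of -0.10 had a 95% interval of -0.18 to -0.02 and was not called (edgeR adjusted p = 0.143). In bulk RNA, fewer cells with a transcript and less of it per cell cannot be told apart.

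KLF4, which is associated with epithelial differentiation and induces the cell cycle inhibitor CDKN1A, moved the other way. It was at 25.7, 28.6 and 22.5 CPM in the parental libraries, at 43.7, 43.4 and 46.7 in LIM1215-R1 and at 53.6, 54.9 and 56.3 in LIM1215-R2. The 3 lines formed 3 separate ranges. KLF4 was 1.75-fold higher in LIM1215-R1 (log2 0.81, SE 0.0766, edgeR adjusted p = 1.8e-09) and 2.16-fold higher in LIM1215-R2 (log2 1.11, SE 0.0754, edgeR adjusted p = 2.25e-12). LIM1215-R2 exceeded LIM1215-R1 in KLF4 by 1.23-fold (log2 0.30, edgeR adjusted p = 0.00474). That last call was lost when any 1 of the 6 resistant libraries was left out, with adjusted p of 0.0119 to 0.0281.

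The ratio of KLF4 to KLF5, formed after their values had been seen, describes the shift within each library. KLF4 CPM amounted to 5.64%, 6.66% and 5.04% of KLF5 CPM in the parental libraries, to 16.2%, 16.7% and 16.9% in LIM1215-R1 and to 20.8%, 22.3% and 22.7% in LIM1215-R2. The mean ratio was 5.78% ± 0.818 (SD, n = 3), 16.6% ± 0.366 and 21.9% ± 1.02, or 2.87-fold and 3.79-fold the parental ratio. KLF5 had the higher CPM of the pair in every library.

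KLF2, known as a flow-responsive factor of endothelium and a regulator of quiescence in T cells, fell in both resistant lines and to different levels. Its libraries held 7.44, 9.54 and 9.03 CPM in parental cells, 2.21, 2.32 and 2.06 in LIM1215-R1 and 5.53, 5.26 and 6.53 in LIM1215-R2. No library of 1 line overlapped those of another. KLF2 was 3.92-fold lower in LIM1215-R1 (log2 -1.97, SE 0.164, edgeR adjusted p = 1.35e-10). In LIM1215-R2 it was 1.5-fold lower (log2 -0.58, SE 0.139, edgeR adjusted p = 0.00151), a call that was lost without LIM1215-parental replicate 3, LIM1215-R2 replicate 1 or LIM1215-R2 replicate 2 (adjusted p up to 0.0148). LIM1215-R2 exceeded LIM1215-R1 by 2.62-fold (log2 1.39, SE 0.174, edgeR adjusted p = 1.99e-06).

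KLF7, a factor studied in neuronal development and in fat cells, was almost lost from both resistant lines. The parental libraries held 126, 102 and 159 counts (7.44, 7.37 and 8.35 CPM), those of LIM1215-R1 0, 3 and 1 counts, and those of LIM1215-R2 1, 0 and 0 counts. Every resistant library was at or under the level of 3 counts. Scaled to library size, the parental level exceeded LIM1215-R1 by 93.6-fold, with an exact 95% counting interval of 36.3 to 345 for 4 against 387 counts. It exceeded LIM1215-R2 by 375-fold, with an interval of 66.9 to 14846 for 1 against 387 counts. The edgeR adjusted p was 3.77e-14 in LIM1215-R1 and 1.81e-14 in LIM1215-R2. With 4 and 1 counts, no difference between the resistant lines was detectable (edgeR adjusted p = 0.435).

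KLF6, a factor induced by tissue injury, was not called in any comparison. Its mean was 91.3 ± 2.43 CPM (SD, n = 3) in parental cells, 81.8 ± 3.74 in LIM1215-R1 and 94.4 ± 5.99 in LIM1215-R2. Its log2 fold change of -0.16 in LIM1215-R1 had a 95% interval of -0.27 to -0.05 and missed the threshold (edgeR adjusted p = 0.0306). In LIM1215-R2 it was 0.05, with an interval of -0.06 to 0.16.

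KLF3, the CtBP-binding repressor of the list, came next to KLF5 in level per length. Its mean was 156 ± 5.20 CPM (SD, n = 3) in parental cells, 139 ± 4.14 in LIM1215-R1 and 158 ± 7.87 in LIM1215-R2. Its log2 fold change of -0.17 in LIM1215-R1 passed narrowly (SE 0.0503, edgeR adjusted p = 0.00983). It no longer passed under 6 other settings or without any 1 of 7 libraries, where the adjusted p reached 0.0533, and passed without LIM1215-parental replicate 2 or LIM1215-R2 replicate 3. In LIM1215-R2 the log2 fold change was 0.02, with an interval of -0.08 to 0.11.

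Of the SIN3A-binding members, KLF10, an early gene of TGF-beta signalling, rose in both lines. It was at 20.9, 19.8 and 20.6 CPM in the parental libraries, at 32.5, 31.6 and 32.4 in LIM1215-R1 and at 41, 39.2 and 38.1 in LIM1215-R2. As for KLF4, the lines formed 3 separate ranges with LIM1215-R2 highest. The increase was 1.57-fold in LIM1215-R1 (log2 0.65, SE 0.0735, edgeR adjusted p = 4.83e-08) and 1.92-fold in LIM1215-R2 (log2 0.94, SE 0.0721, edgeR adjusted p = 2.46e-11). The log2 difference between the resistant lines was 0.29 (edgeR adjusted p = 0.00398). This difference was no longer called without LIM1215-R1 replicate 2 or 3, or LIM1215-R2 replicate 1 or 2, with adjusted p up to 0.0355.

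KLF9, a gene that glucocorticoid and thyroid hormone induce, was at 0 counts in all 3 parental libraries. LIM1215-R1 held 10, 3 and 3 counts and LIM1215-R2 7, 6 and 1. Counts were thus few everywhere, and only 1 LIM1215-R1 library and 2 LIM1215-R2 libraries were above 0.217 CPM. Against a floor of 3 counts over the parental group, the KLF9 level of LIM1215-R1 was at least 5.51-fold higher and that of LIM1215-R2 at least 4.82-fold higher. The exact 95% counting interval of the ratio, for 16 and 14 against 0 counts, began lower, at 3.99 and 3.42. LIM1215-R1 replicate 1 held 10 of the 16 counts, and without it the value against the floor was 3.12-fold. The edgeR adjusted p was 0.00316 and 0.0058. The call in LIM1215-R1 was lost without LIM1215-parental replicate 1 or 3 or LIM1215-R1 replicate 1 (adjusted p up to 0.0243), and that in LIM1215-R2 without any 1 parental library or LIM1215-R2 replicate 1 or 2 (adjusted p up to 0.0296).

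KLF11, another TGF-beta-inducible factor, was lower in LIM1215-R1. Its mean was 45.8 ± 2.24 CPM (SD, n = 3) in parental cells, 36 ± 1.87 in LIM1215-R1 and 39.6 ± 2.99 in LIM1215-R2. It fell by 0.35 on the log2 scale in LIM1215-R1 (edgeR adjusted p = 0.000303). The log2 fold change of -0.21 in LIM1215-R2 missed the threshold (edgeR adjusted p = 0.0248), and the difference between the resistant lines was 0.14, with an interval of -0.0025 to 0.28. KLF13, a factor studied in lymphocytes and heart, showed no detectable difference at 13.7 ± 0.866, 12.6 ± 1.13 and 12.9 ± 1.90 CPM. Its log2 fold changes of -0.11 and -0.09 had intervals of -0.33 to 0.11 and -0.31 to 0.13.

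**Figure D2:**
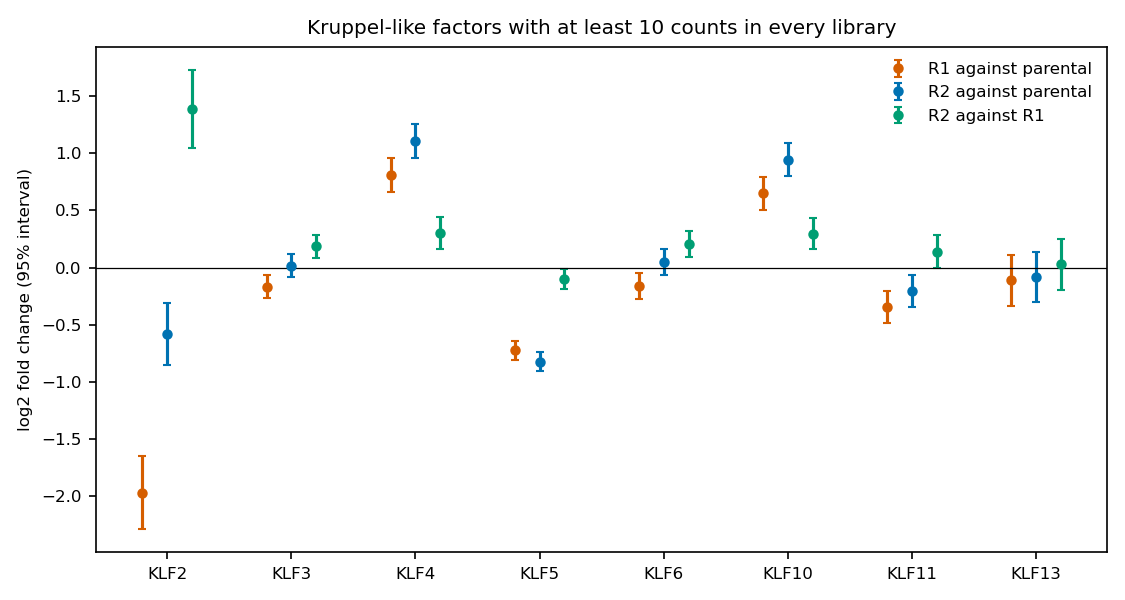
Log2 fold change (vertical axis) of the 8 members that reached 10 counts in every library, with bars of the 95% interval, for each resistant line against parental cells and for LIM1215-R2 against LIM1215-R1. KLF2 stands lowest in LIM1215-R1 at -1.97, and KLF4 and KLF10 lie above 0 in all 3 comparisons.

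Between the resistant lines, 3 of the 10 members were called, all of them higher in LIM1215-R2, namely KLF2, KLF4 and KLF10. Among all genes 7.16% were called in this comparison, 3.39% higher and 3.77% lower. No member was a DEG by edgeR or DESeq2, although 6 had an unadjusted edgeR p under 0.05, and 0.764% of all genes were DEGs, 0.215% higher and 0.55% lower. Libraries did not overlap for 6 members and for 28% of all genes. The median log2 difference of the members was 0.16, against -0.0011 over all genes. KLF3 and KLF6, both with adjusted p under 0.05 (0.0142 and 0.0149), were higher in LIM1215-R2 by 0.18 and 0.21 on the log2 scale without passing 0.01.

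Levels of different genes were compared as CPM per kilobase of the MANE Select transcript, the reference transcript of each gene. In parental cells the order was KLF5 at 132.7, KLF3 at 27.9, KLF6 at 19.9, KLF11 at 11.3, KLF4 at 8.73, KLF10 at 7.02, KLF2 at 3.07, KLF13 at 1.995 and KLF7 at 0.923 CPM per kilobase, followed by KLF9 at 0, and no neighbours in this order overlapped between libraries. In LIM1215-R1, KLF4 at 15.2 and KLF10 at 11.03 stood above KLF11 at 8.91, and KLF13 stood above KLF2, again without overlap of neighbours. In LIM1215-R2, KLF4 at 18.7 was next to KLF6 at 20.6, and these neighbours overlapped, as did KLF2 and KLF13. KLF5, KLF3 and KLF6 kept the first 3 places in every line.

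The sum over the members was 213.6 ± 3.91 CPM per kilobase (SD, n = 3) in parental cells, 160.8 ± 3.51 in LIM1215-R1 and 169.7 ± 4.11 in LIM1215-R2. KLF5 made up 62.1% of this sum in parental cells, 49.9% in LIM1215-R1 and 44.1% in LIM1215-R2. KLF4 made up 4.09%, 9.45% and 11.02%. KLF5 itself went from 132.7 CPM per kilobase to 80.3 and 74.9.

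**Figure D3:**
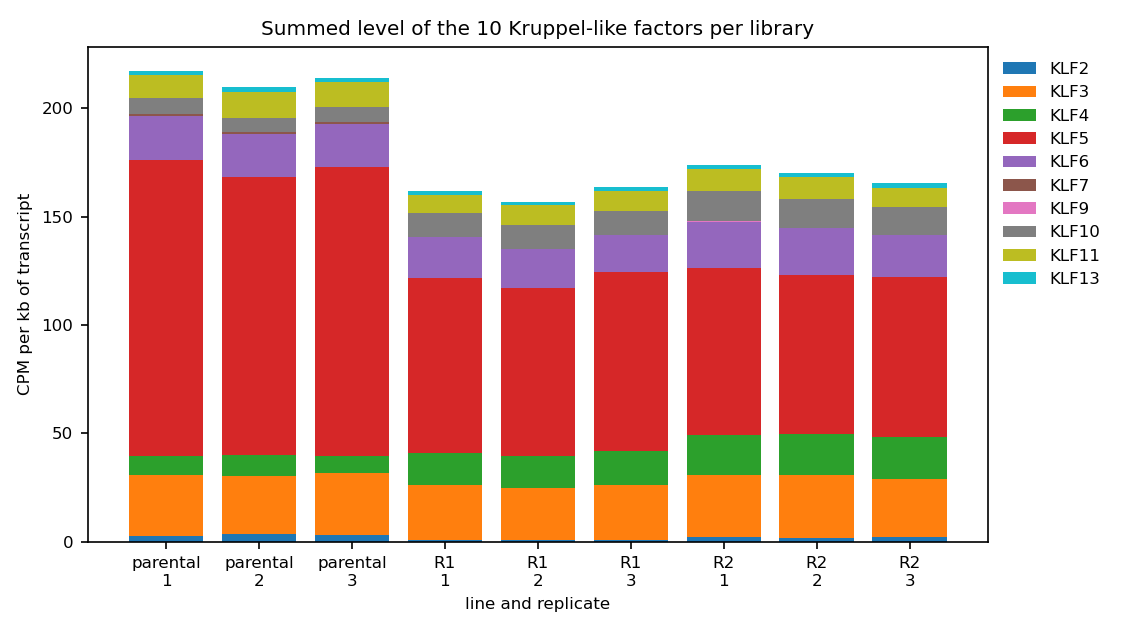
Stacked level of the 10 members in CPM per kilobase of transcript (vertical axis from 0) in each of the 9 libraries. The KLF5 segment is the largest in every library and shrinks from 62.1% of the parental sum to 49.9% and 44.1%.

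Of the 8 other genes of the family, 5 were tested, and 1 was higher and 1 lower in each resistant line, 40% called where 27.3% and 23.8% of all genes were. KLF12, a CtBP-binding repressor, fell from 43.3 ± 1.27 CPM (SD, n = 3) to 28.6 ± 0.577 in LIM1215-R1 and 35.8 ± 1.88 in LIM1215-R2. Its log2 fold changes were -0.60 and -0.27 (edgeR adjusted p = 7.25e-08 and 0.00225). KLF16 rose by 0.28 and 0.24 on the log2 scale (edgeR adjusted p = 0.00072 and 0.00361). The KLF12 call in LIM1215-R2 was lost without LIM1215-R2 replicate 2 or 3 (adjusted p up to 0.0185), and the KLF16 call in LIM1215-R2 without LIM1215-parental replicate 1 or LIM1215-R2 replicate 1 or 3 (adjusted p up to 0.0344). KLF8 was under 2 CPM on average in each line, KLF1 and KLF15 had 12 and 22 counts over all libraries, and KLF14, KLF17 and KLF18 had at most 1 count.

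The SP factors are the closest relatives of the Kruppel-like factors and bind GC boxes through the same kind of zinc fingers. Of 9, 7 were tested, and 1 rose and 3 fell in LIM1215-R1, while 1 rose and 1 fell in LIM1215-R2, which is 57.1% and 28.6% called beside 27.3% and 23.8% of all genes, with medians of -0.07 and -0.10. SP8, a factor of limb and brain development, fell from 141 counts over the parental libraries to 19 in LIM1215-R1 and 6 in LIM1215-R2, which is 7.18-fold and 22.8-fold lower for the library sizes. SP6 rose by 0.54 and 0.51. SP1 and SP3, the widely expressed members, fell by 0.27 and 0.23 on the log2 scale in LIM1215-R1 and were not called in LIM1215-R2.

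Of 10 cofactors, 4 were lower in LIM1215-R1 and 2 in LIM1215-R2, and none was higher, with medians of -0.12 and -0.05. Of all genes, 13.4% and 11.6% were lower and 14% and 12.3% higher. The corepressor SIN3A fell by 0.34 and 0.27, and the acetyltransferase EP300 fell by 0.34 in LIM1215-R1 (edgeR adjusted p = 3.9e-06). KAT2B, another acetyltransferase, was called only between the resistant lines, where it was 0.41 higher in LIM1215-R2 on the log2 scale, a call lost without LIM1215-R1 replicate 2 or LIM1215-R2 replicate 2 or 3 (adjusted p up to 0.0348). Of 5 ubiquitin ligases that act on Kruppel-like factors, WWP1, which targets KLF5, rose by 0.35 and 0.33 (edgeR adjusted p = 7.17e-06 and 1.88e-05), and the other 4 were not called, a share of 20% beside 27.3% and 23.8% of all genes.

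Of 11 upstream regulators, 10 were tested, with 1 higher and 4 lower in LIM1215-R1 and 1 higher and 2 lower in LIM1215-R2, or 50% and 30% called beside 27.3% and 23.8% of all genes. MEF2C, a factor upstream of KLF2 in the ERK5 pathway, was 12.02 ± 1.39 CPM (SD, n = 3) in parental cells and 3.73 ± 0.552 and 4.02 ± 0.850 in the resistant lines, log2 fold changes of -1.69 and -1.58 (edgeR adjusted p = 7.82e-10 and 2.25e-09). CDX2, the intestinal factor that activates KLF4, fell by 0.44 and 0.54, opposite to KLF4 itself. SMAD2, of TGF-beta signalling, rose by 0.38 and 0.32, and the immediate early gene EGR1 fell by 0.29 in LIM1215-R1 (edgeR adjusted p = 0.00787), a call lost without any 1 parental library, LIM1215-R1 replicate 1 or 3 or LIM1215-R2 replicate 1 (adjusted p up to 0.0754). NR3C1, the glucocorticoid receptor that induces KLF9, had 4 counts over all 9 libraries and was not tested.

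Other genes that glucocorticoid induces were set beside KLF9. Of 6 such genes 5 were tested, and 1 was lower in LIM1215-R1, 2 were lower in LIM1215-R2 and none was higher, or 20% and 40% called beside 27.3% and 23.8% of all genes, with medians of -0.06 and -0.05. FKBP5, a classic glucocorticoid target, fell from 96 counts in the parental libraries to 2 in LIM1215-R1 and 1 in LIM1215-R2, a ratio of 46.4 with an exact 95% counting interval of 12.5 to 389 and of 93.0 with an interval of 16.3 to 3711. SGK1 was lower in LIM1215-R2, at 0.190 ± 0.113 against 1.06 ± 0.367 CPM (SD, n = 3, edgeR adjusted p = 0.000266).

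Of 21 known target genes of Kruppel-like factors, 14 were tested, and 8 were higher and 2 lower in LIM1215-R1, and 7 higher and 3 lower in LIM1215-R2, with medians of 0.20 and 0.16. Of all genes, 14% were higher and 13.4% lower in LIM1215-R1, and 12.3% and 11.6% in LIM1215-R2. The list pools targets of different members, which themselves moved in opposite directions. Its counts and medians therefore measure no response to any 1 member. CDKN1A, the cell cycle inhibitor p21 that KLF4 induces, was at 108, 119 and 107 CPM in the parental libraries, at 373, 421 and 368 in LIM1215-R1 and at 209.7, 220.3 and 216 in LIM1215-R2. The 3 lines were separate, and LIM1215-R1 was highest, whereas KLF4 itself was highest in LIM1215-R2. The log2 fold changes of CDKN1A were 1.80 and 0.95 (edgeR adjusted p = 7.05e-20 and 5.66e-14). ALPI, intestinal alkaline phosphatase and another KLF4 target, followed the same order, with log2 fold changes of 2.14 and 1.10 at 4.44 ± 0.665, 2.17 ± 0.434 and, in parental cells, 0.993 ± 0.226 CPM. The ALPI call in LIM1215-R2 was lost without LIM1215-parental replicate 3 or LIM1215-R2 replicate 2 or 3 (adjusted p up to 0.0125). NOS3, a KLF2 target of endothelium, rose by 1.10 and 0.71 while KLF2 fell. ATF3 rose by 0.90 and 0.42, and PLAU fell by 0.64 and 0.66. The list also held cell cycle genes. In parental cells, LIM1215-R1 and LIM1215-R2, CCND1 had means of 1100, 1498 and 1566 CPM and CDK1 of 131, 156 and 154. CCNB1 was at 218, 240 and 215 CPM and CCNE1 at 44.3, 43.2 and 43.2. Without cetuximab, the study found no difference in proliferation between parental and resistant cells. Between the resistant lines 5 of the 14 tested targets were lower in LIM1215-R2 and none higher, where 3.77% and 3.39% of all genes were.

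**Figure D4:**
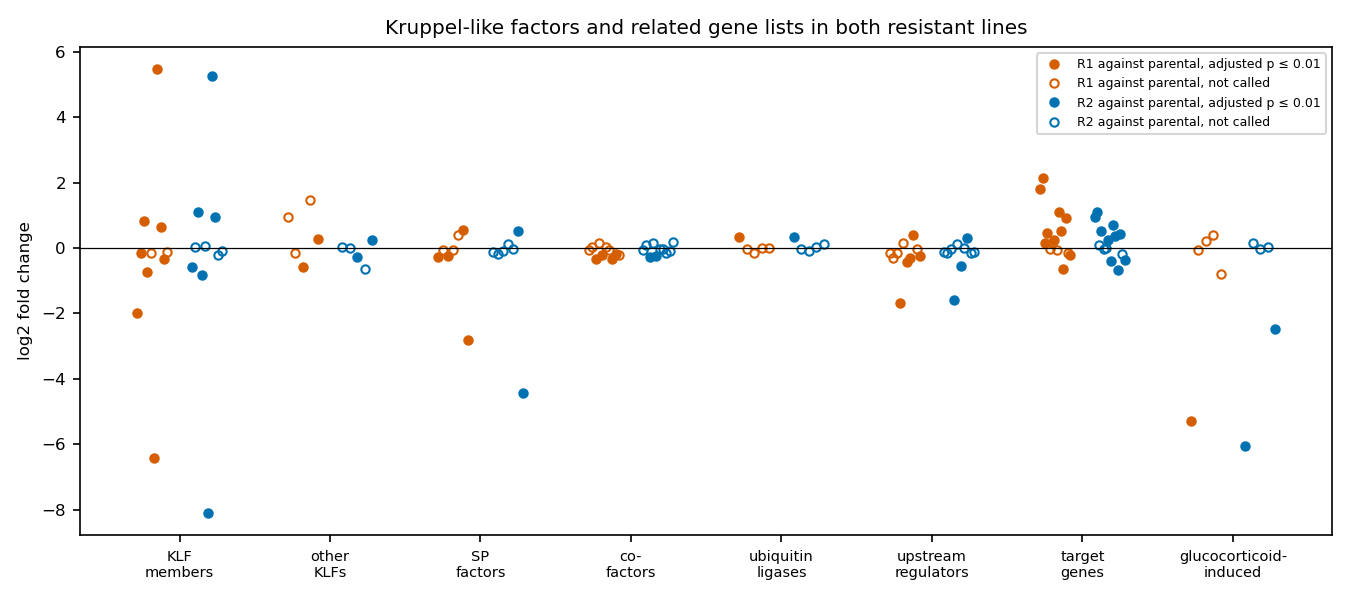
Log2 fold change (vertical axis) of every tested gene of the members and of 7 related lists, in both resistant lines against parental cells, filled where the edgeR adjusted p was at most 0.01. The fitted values of KLF7, KLF9 and FKBP5, on lines with 0 to 4 counts, depend on the prior count and are no sizes of change. The cofactors lie at -0.34 to 0.19.

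The genes around the members that moved most were examined in windows of 2 Mb on either side of the start, chosen after the members' values had been seen. Of 15 tested protein-coding genes around KLF7, none was a DEG in either line, where 5.14% and 4.82% of all genes were, and 2 were higher and 7 lower in LIM1215-R1, while 4 were higher and 3 lower in LIM1215-R2. The nearest genes on either side were CPO, at under 0.3 CPM in every line, and CREB1, with log2 fold changes of -0.35 and -0.13. Of 6 genes around KLF5, 3 were lower in LIM1215-R1 and 2 in LIM1215-R2 and none was higher. KLF12 is the next protein-coding gene beyond KLF5 on chromosome 13, 608.6 kb away, and is the family member whose fall was described above. DACH1, singled out after its values were seen, fell from 10.3 CPM to 1.97 and 0.245 in the KLF5 window (edgeR adjusted p = 4.46e-12 and 7.14e-16). Of 69 genes around KLF2 on the gene-dense chromosome 19, 22 were higher and 1 lower in LIM1215-R1, and 16 higher and 3 lower in LIM1215-R2, with 6 and 7 DEGs. Of all genes, 14% were higher and 13.4% lower in LIM1215-R1, and 12.3% and 11.6% in LIM1215-R2. Of 9 around KLF4, 2 were higher and 1 lower in each line.

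**Figure D5:**
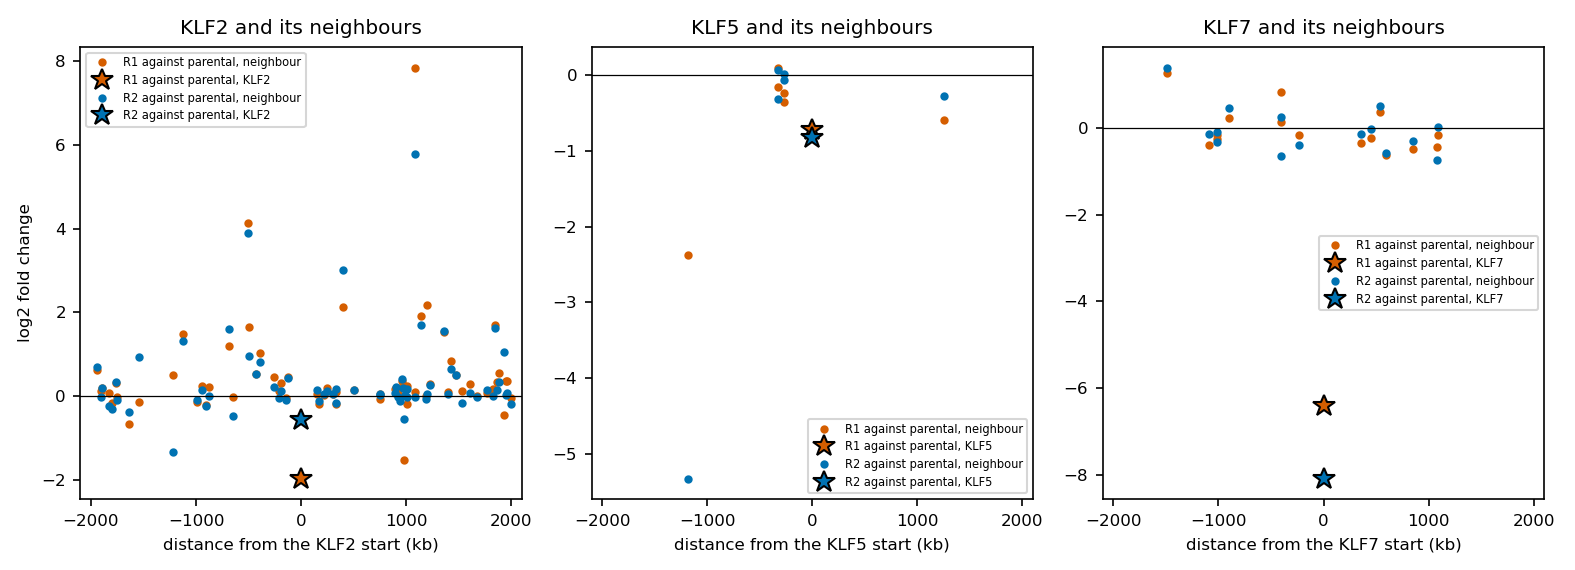
Log2 fold change (vertical axis) against distance from the start of KLF2, KLF5 or KLF7 in kb (horizontal axis), for tested protein-coding genes within 2 Mb, in both resistant lines against parental cells, with the member itself as a star at 0. The KLF7 stars, at fitted values of -6.42 and -8.09 that rest on 4 and 1 counts, lie below every gene of the window, none of which was a DEG.

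Genes most like KLF7 and KLF2 were found by the distance between pairs of log2 fold changes, each resistant line against the same parental libraries, among 9599 genes of at least 10 CPM in their highest line. TUB (distance 1.03), PLXDC2 (1.62) and NPNT (2.29) were nearest to KLF7, whose own fitted values rest on 4 and 1 counts in the resistant lines. TUB was at 20.4 CPM in parental cells and at 0.476 and 0.0619 CPM in the resistant lines. No genes are named as like KLF9, because its fitted fold change over 0 parental counts is no measured size. TOR4A (0.276), PRKD3 (0.525) and ADAMTS15 (0.538) were nearest to KLF2, and TOR4A was at 37.4, 11.4 and 27.0 CPM in parental cells, LIM1215-R1 and LIM1215-R2.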

How the data were processed

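Poly(A) RNA of the 3 lines was sequenced in stranded libraries, 3 per line. The authors used STAR with hg38 for alignment and htseq-count 0.9.1 for sense-strand counting per gene, and deposited raw counts, 1 table per library. The gene annotation is not given in the sources used here. Depth was 13737416 to 18725014 counts per library; intervals and floors cover counting error only.

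Testing used edgeR 4.0.16 under R 4.3.3 (TMM, quasi-likelihood test, 1 model over the 9 libraries with the lines as groups) for genes with at least 10 counts in all, with Benjamini-Hochberg adjustment over the 19102 genes tested. The test was first tried on simulated data. Calls needed an adjusted p of at most 0.01, and DEGs also a log2 fold change of 1.5 or more in size, after the study's own thresholds. Where a line was at 0, folds were taken against 3 counts over its 3 libraries. CPM per kilobase used transcript lengths of GENCODE release 44. Positions and promoters came from RefSeq (GRCh38.p14). Replicates differed by more than sampling noise (chi-square per degree of freedom of 1.82 to 6.04). Each library was tested as its own sample, although this scatter does not make libraries of 1 population independent. Intervals of log2 fold changes use the SE and the normal distribution.

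Members and lists were chosen with earlier results of these data known. Named were all members, the other Kruppel-like factors, and of each further list every DEG plus at most 3 called genes with the largest change. The cell cycle genes of the target list were named in addition, after their values had been seen. For the 3 members with the largest change, the 3 genes nearest in both log2 fold changes were to be named, and those of KLF9 were left out, since its parental counts were 0. Alternatives were DESeq2 1.42.0 with and without lfcShrink, its size factors, total counts, other filters, a lower fold threshold, fits to the 6 libraries compared, a replicate block and each library left out.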

Additional observations from a re-analysis of the deposited data

Results flagged for a closer look

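Effects that differed between LIM1215-R1 and LIM1215-R2 were tested directly, as LIM1215-R2 minus LIM1215-R1 in log2 units in the edgeR model. KLF2 differed by 1.39 (adjusted p = 1.99e-06), KLF4 by 0.30 (adjusted p = 0.00474) and KLF10 by 0.29 (adjusted p = 0.00398), each higher in all 3 LIM1215-R2 libraries than in all 3 LIM1215-R1 libraries. KLF12 differed by 0.32 (adjusted p = 0.00204) and KAT2B by 0.41 (adjusted p = 0.00388). The target genes CDKN1A (-0.85, adjusted p = 3.93e-12), ALPI (-1.04, adjusted p = 0.000875) and ATF3 (-0.48, adjusted p = 0.000407) differed in the opposite direction. The ALPI difference was lost without LIM1215-R2 replicate 1 (adjusted p = 0.0159) and that of KLF12 without LIM1215-R1 replicate 3 or LIM1215-R2 replicate 1 (adjusted p up to 0.0271).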

How the results depend on the processing

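Of 501 values for single members under the alternatives, 447 kept their direction and side of the threshold, 34 lost and 11 gained a call, and 9 reversed, all 9 of them with 1 library left out and never called. With at least 10 counts in every library, KLF7 and KLF9 were no longer tested and KLF3 was no longer called in LIM1215-R1, which left 5 calls and 1 DEG in LIM1215-R1 and 0 DEGs in LIM1215-R2. DESeq2's lfcShrink left 2 DEGs for LIM1215-R1 and 1 for LIM1215-R2, none higher. Between the resistant lines, total counts alone gave 5 calls, and a fold threshold of 1 gave 1 DEG. With each library left out in turn, LIM1215-R1 had 6 to 8 calls and 2 to 3 DEGs, LIM1215-R2 4 to 6 calls and 1 to 2 DEGs, and the resistant lines differed in 1 to 5 members. In these fits the log2 change of KLF3 in LIM1215-R2 ranged from -0.00895 to 0.0553 and that of KLF13 from -0.17 to 0.0328, and between the resistant lines KLF9 ranged from -0.56 to 0.60 and KLF13 from -0.0562 to 0.15. Of 789 values for genes of the other lists, 745 kept their call and 44 lost it. Scaling moved the median of all genes to -0.04 at most.

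Same-numbered libraries correlated weakly, at -0.0186 to 0.0984 in their deviations from the line means, and 0 of 9 pairs exceeded 0.1. Of the 9 libraries, 6 correlated best with their own number. Whether a replicate number marks a shared batch was not tested. With the replicate number as a block, calls over all genes went from 5222 to 5841 in LIM1215-R1 and from 4554 to 5197 in LIM1215-R2. Between the resistant lines they went from 1368 to 2044. There 5 members were called with the block, KLF3 and KLF6 in addition (edgeR adjusted p = 0.00303 and 0.0024). KLF6 was also called in LIM1215-R1 with the block (edgeR adjusted p = 0.00966).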
